A study of Mus musculus with 6 samples.

Results

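DNA replication and S phase genes were compared between the spleens of 2 mouse crosses. They comprise 46 genes, listed by name, that encode the machinery which licenses replication origins, unwinds and copies DNA, supplies nucleotides and rebuilds chromatin in the S phase of the cell cycle. Of these, 45 had a probe set annotated to that gene alone and Chaf1a had none, so 45 of the 18193 genes measured were described. Where a gene had several such probe sets the one with the highest mean over all samples stood for it. The rule uses no measured difference, but the list was drawn up with earlier results of these data known.

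Every animal was an adult F1 female with FVB/NJ as one inbred parent. In the AKR/J cross, (AKR/J x FVB/NJ)F1, the other parent was AKR/J, and in the DBA/2J cross, (DBA/2J x FVB/NJ)F1, it was DBA/2J. Each cross gave 3 spleens, each on its own Affymetrix array, and all were taken at baseline, under Avertin anaesthesia, with the tissue frozen before RNA extraction. An F1 animal carries an FVB/NJ copy of each autosomal gene in both crosses, and the copy from the other parent is what differs. These are called the AKR/J F1 group and the DBA/2J F1 group.

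Cells copy their DNA once per division. In G1, the origin recognition complex, Cdc6 and Cdt1 load the Mcm2 to Mcm7 ring onto origins, and geminin later blocks further loading. E2F factors raise the transcription of many of these genes before S phase. Kinases, among them Cdk2 with cyclin E, then help to turn the ring into an active helicase with Cdc45 and the GINS complex, after which polymerases, the sliding clamp PCNA and its loader copy both strands. In the adult mouse spleen dividing cells include red cell precursors of the red pulp, since the mouse spleen keeps some blood formation, and activated B cells of germinal centres.

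The values are log2 signals per probe set, and 1 unit is a doubling on that scale. Array medians lay between 5.05 and 5.10. Defining markers of the labelled tissue were present, with the B cell receptor gene Cd79a at 11.57 to 12.09 and the red pulp macrophage factor Spic at 9.52 to 9.84 over the 6 arrays. Markers of pancreatic exocrine cells were also high, at a mean of 13.29 to 13.93 over 9 genes in 5 arrays, and 5.99 in replicate 3 of the DBA/2J F1 group. The counts of replication genes and of cell markers past the adjusted threshold are therefore given without that array too. These are bulk tissue values, in which fewer cells of a type and less RNA per cell cannot be told apart. Nothing in the labels says how the animals were related beyond the cross, and p-values measure the spread between these samples only.

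Of the 45 replication genes, 20 were higher in the DBA/2J F1 group and none in the AKR/J F1 group. In limma with Benjamini-Hochberg adjustment over all 18193 genes, those 20 passed an adjusted p of 0.05 (44.4%), against 8.31% of all genes, and 17.2% of all genes passed in either direction. None of the 45 passed in the other direction, where 8.91% of all genes did (0 in limma, and 0 at an unadjusted p under 0.05). At an unadjusted p under 0.05, 33 were higher in the DBA/2J F1 group, against 3234 of all 18193 genes. Without replicate 3 of that group the count was 25 of the 45. Differences, always given as DBA/2J F1 group minus AKR/J F1 group, were above 0 for 44 of the 45, against 9333 of all 18193. The differences of the 45 had a median of 0.71, against 0.01 over all genes. They ran from -0.07 for the clamp loader subunit Rfc1 to 1.51 for the ribonucleotide reductase subunit Rrm2, and 9 genes differed by at least 2-fold, against 5 without DBA/2J F1 replicate 3. The median difference was 0.55 without replicate 3 of the DBA/2J F1 group and 0.97 without replicate 1.

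The 3 arrays of the DBA/2J F1 group were not alike. Averaged over the 45 genes, the AKR/J F1 group stood at 7.64, 7.91 and 7.52 in replicates 1 to 3 and the DBA/2J F1 group at 7.92, 8.61 and 8.71. Replicate 1 of the DBA/2J F1 group was thus level with the highest AKR/J F1 array, and the other two stood clear of all. Replicates 2 and 3 of the DBA/2J F1 group were both above every AKR/J F1 array for 44 of the 45 genes, which is so for 26.7% of all genes. Replicate 1 was the lowest of its cross for all 45 genes and was below every AKR/J F1 array for 2. It was above every AKR/J F1 array for 21 (46.7%), against 34.3% of all genes. The 3 arrays of the DBA/2J F1 group all lay above the 3 of the AKR/J F1 group for those 21 genes (46.7%), against 19.2% of all genes. Among AKR/J arrays, replicate 2 was the highest for 39 genes and replicate 3 the lowest for 35. The median SD was 0.465 in the DBA/2J F1 group and 0.211 in the AKR/J F1 group, and it was larger in the DBA/2J F1 group for 44 of the 45 genes, against 56.3% of all genes.

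**Figure D1:**
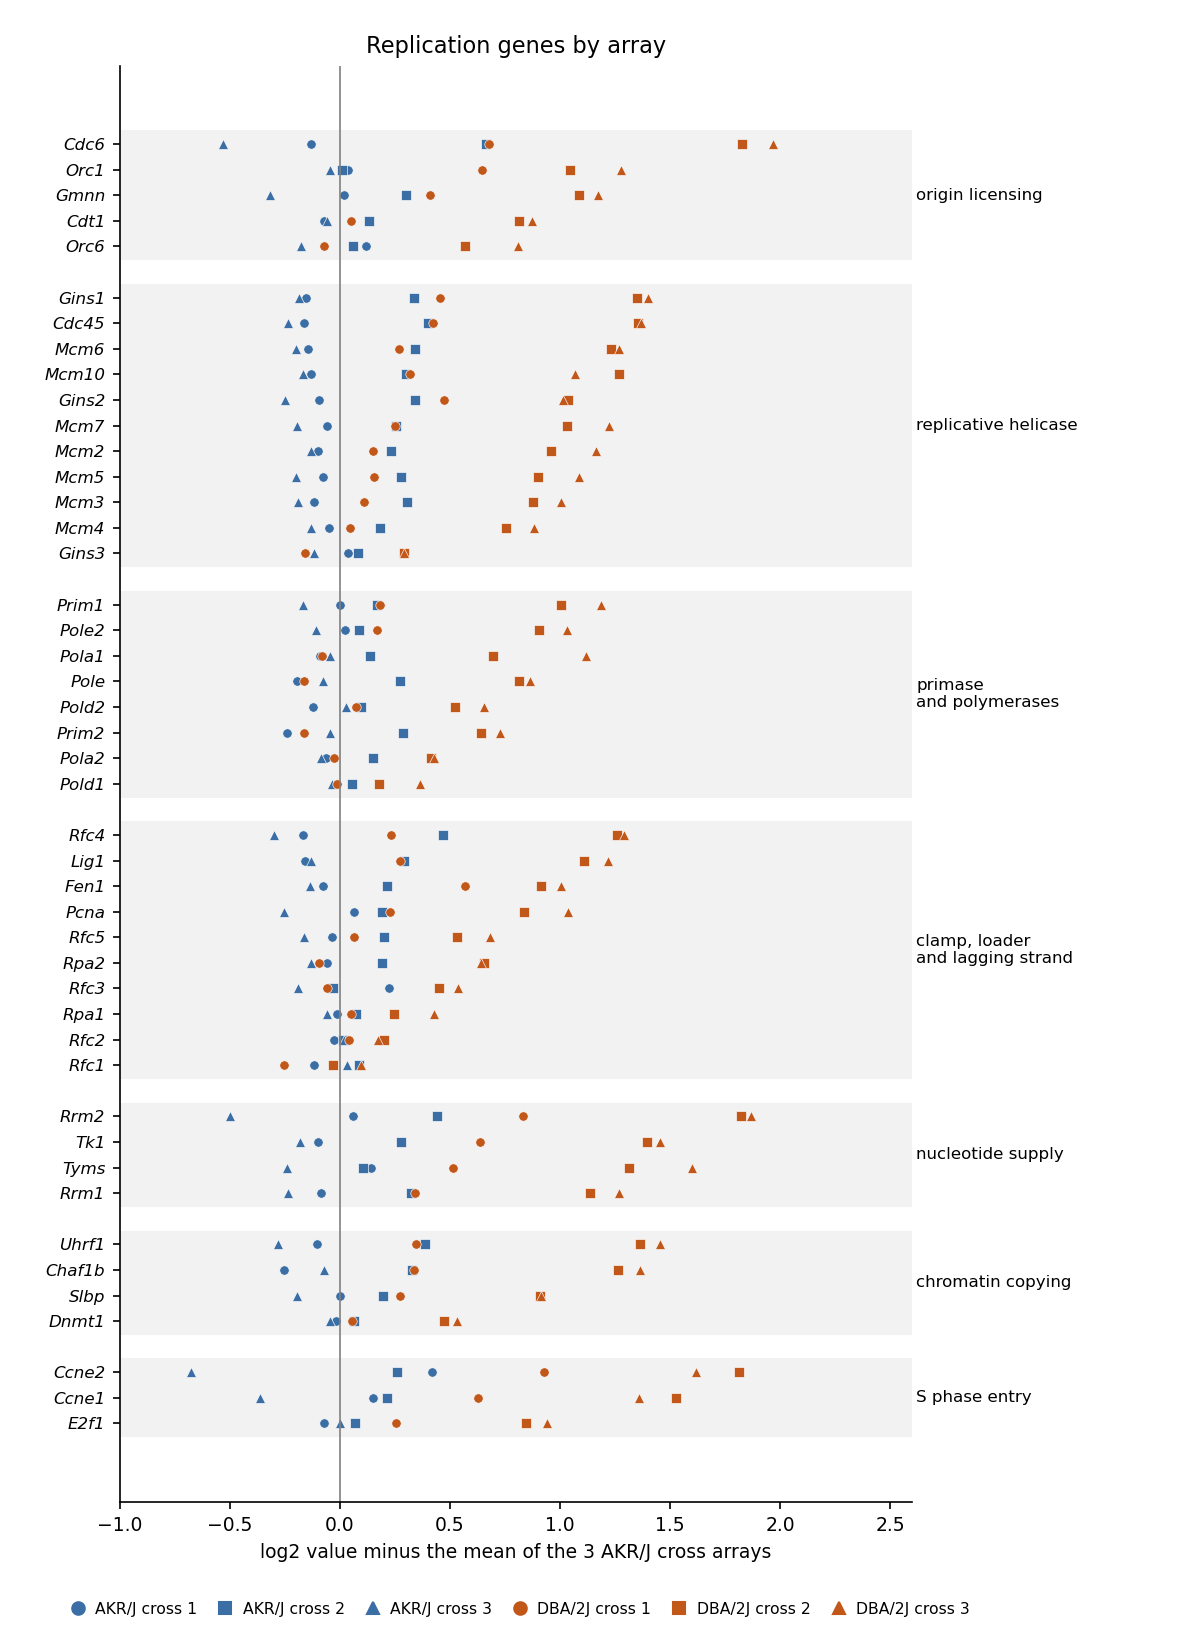
Log2 value of each of the 45 replication genes on each array, minus the mean of the 3 AKR/J F1 arrays, grouped by role; colour gives the cross and shape the replicate. Replicates 2 and 3 of the DBA/2J F1 group (orange squares and triangles) lie to the right for 44 genes, and replicate 1 (orange circles) lies among the blue AKR/J F1 points for many.

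The number of genes that passed depended on single arrays. Without replicate 1, 2 or 3 of the AKR/J F1 group, 2, 11 and 2 of the 45 passed, against 1.72%, 3.18% and 2.06% of all genes in the same direction. Without replicate 2 or 3 of the DBA/2J F1 group, 2 and 3 passed, against 2.35% and 3.05% of all genes, and without replicate 1 of the DBA/2J F1 group 41 passed, against 8.99%. The origin recognition gene Orc1 passed whichever array was left out, the flap endonuclease gene Fen1 in all but the fit without AKR/J F1 replicate 1, and Tk1 and Ccne2 in 3 of the 6 fits. With a trended and robust variance 7 of the 45 passed, against 7.6% of all genes, and with array weights 35, against 11.2%.

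**Figure D2:**
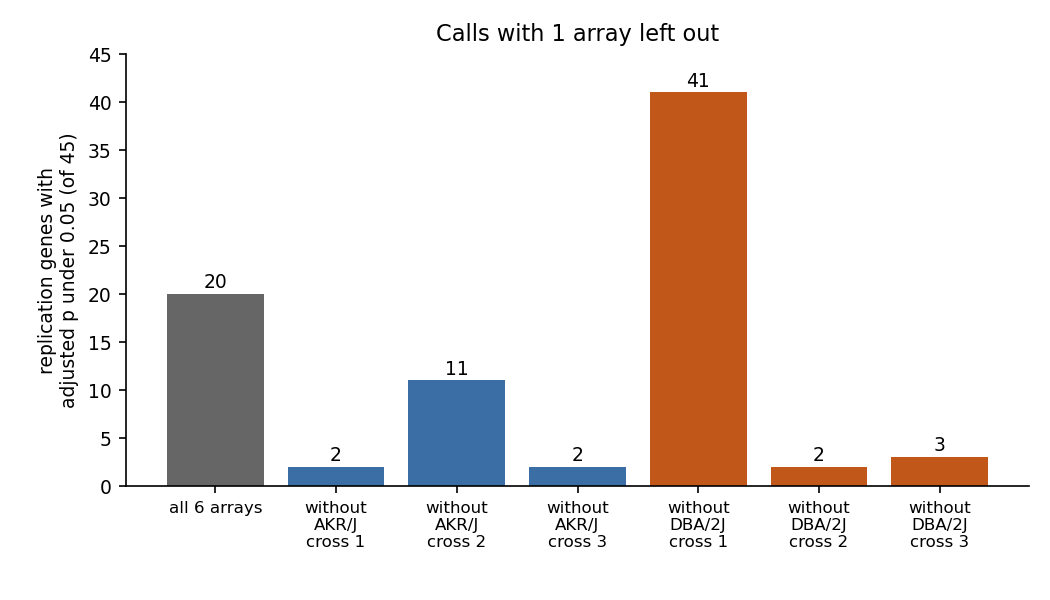
Number of the 45 replication genes higher in the DBA/2J F1 group at an adjusted p under 0.05 (vertical axis), with all 6 arrays and with each array left out. The count is 20 with all arrays, 2 to 11 without any one of 5 arrays, and 41 without replicate 1 of the DBA/2J F1 group.

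Promoters of the replication genes were set beside these values because E2F factors are known to act through short DNA sites near the starts of such genes. RefSeq windows of the GRCm38.p6 assembly were matched by symbol for 38 of the 46 genes, and the 250 bases before the start were searched on both strands for TTTGGCGC, TTTCGCGC and TTTCCCGC. At least 1 of the 3 was present for 10 of the 38 genes (26.3%) and for 1.78% of all 27025 genes with a window. Stretches of these windows are printed for a gene that passed with every array left out (Orc1), the licensing gene with the largest difference (Cdc6), 2 Mcm ring subunits, a gene of chromatin copying (Uhrf1) and a gene with a small difference (Gins3). Each is the part of the window nearest the start, runs 5′ to 3′ on the gene's strand, and ends at the base before the start, with the E2F letters in capitals on whichever strand they were found. In Mcm5 and in the first run of Mcm6 sites on opposite strands overlap.
Orc1, chr4:108579354-108579453, plus strand: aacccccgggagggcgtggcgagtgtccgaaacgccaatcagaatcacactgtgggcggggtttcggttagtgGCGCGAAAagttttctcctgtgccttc
Cdc6, chr11:98908003-98908150, plus strand: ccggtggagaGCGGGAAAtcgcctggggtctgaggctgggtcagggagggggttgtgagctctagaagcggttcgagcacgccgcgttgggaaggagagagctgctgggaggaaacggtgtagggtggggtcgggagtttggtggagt
Mcm5, chr8:75109346-75109508, plus strand: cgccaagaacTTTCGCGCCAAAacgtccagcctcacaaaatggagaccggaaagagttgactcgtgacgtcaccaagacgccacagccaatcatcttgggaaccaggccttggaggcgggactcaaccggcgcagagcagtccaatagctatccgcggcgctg
Mcm6, chr1:128359706-128359825, minus strand: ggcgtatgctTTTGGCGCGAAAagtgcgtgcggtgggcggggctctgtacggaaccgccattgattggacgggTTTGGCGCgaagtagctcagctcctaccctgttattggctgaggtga
Uhrf1, chr17:56304118-56304312, plus strand: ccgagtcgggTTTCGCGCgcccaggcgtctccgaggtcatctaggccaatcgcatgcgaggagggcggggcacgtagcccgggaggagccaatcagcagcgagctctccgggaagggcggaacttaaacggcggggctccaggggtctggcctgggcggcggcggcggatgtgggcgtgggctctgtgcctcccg
Gins3, chr8:95633459-95633558, plus strand: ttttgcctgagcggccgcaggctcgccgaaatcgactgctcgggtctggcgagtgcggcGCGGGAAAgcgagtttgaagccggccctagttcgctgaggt

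The letters began 27 bases before the start in Orc1 and 41 in Gins3, and up to 185 bases before it in Uhrf1 among the windows shown. The 10 genes with them had a median difference of 0.77, with 4 past the threshold, and the 27 measured genes with a window but without them had a median of 0.70, with 12 past it. The NF-Y letters CCAAT were present for 24 of the 38 genes (63.2%) and 37.5% of all genes, and the cell cycle homology letters TTTGAA for 6 (15.8%) and 18.3%. A match is a run of letters in this window and says nothing about binding in these spleens.

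Origin licensing genes were the first group described. Of 5 genes, 3 were higher in the DBA/2J F1 group, with a group median of 0.89. The largest subunit of the origin recognition complex, Orc1, stood at 5.69, 5.67 and 5.61 in the AKR/J F1 group and at 6.31, 6.70 and 6.93 in the DBA/2J F1 group. Its groups were well apart, with AKR/J F1 arrays close together, and it differed by 0.99 ± 0.15 (SE; adjusted p = 0.00916), or 1.98-fold. The loading factor Cdc6 read 6.74, 7.53 and 6.34 in the AKR/J F1 group and 7.55, 8.70 and 8.84 in the DBA/2J F1 group. The groups only just missed overlapping, since DBA/2J F1 replicate 1 was barely above AKR/J F1 replicate 2, and the difference was 1.49 ± 0.38 (adjusted p = 0.0372). Geminin (Gmnn), which binds and blocks Cdt1, had 7.98, 8.26 and 7.64 against 8.37, 9.05 and 9.14, a difference of 0.89 ± 0.22 (adjusted p = 0.0341). Its target, the loading factor Cdt1, did not pass, with 9.62, 9.82 and 9.63 against 9.74, 10.505 and 10.57 (0.58, adjusted p = 0.0835). Orc6, a small origin recognition subunit, had 7.003, 6.94 and 6.70 against 6.81, 7.45 and 7.69 (0.44, adjusted p = 0.169), with DBA/2J F1 replicate 1 inside the AKR/J F1 range. Without DBA/2J F1 replicate 3 only Orc1 of this group passed, and without replicate 1 all 5 did.

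Among 11 genes of the replicative helicase, 5 were higher in the DBA/2J F1 group and the group median was 0.83. The ring subunits Mcm2 to Mcm6 gave values of 0.56 to 0.92 and did not pass, with adjusted p from 0.0506 (Mcm6) to 0.0923 (Mcm4). Mcm6 illustrates the layout, at 8.83, 9.31 and 8.77 in the AKR/J F1 group and 9.24, 10.20 and 10.24 in the DBA/2J F1 group, where the first DBA/2J F1 array lies below the second AKR/J F1 array. The remaining ring subunit, Mcm7, read 10.37, 10.68 and 10.23 against 10.68, 11.46 and 11.65, and passed narrowly although replicate 1 of the DBA/2J F1 group lay just below replicate 2 of the AKR/J F1 group, with 0.83 ± 0.24 (adjusted p = 0.0485). The test did not compare Mcm7 with its partners, whose differences have SEs of 0.21 to 0.27.

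Of 5 factors that join the loaded ring to make a moving helicase or bind it at the fork, 4 were higher in the DBA/2J F1 group, by 0.84 to 1.07. Cdc45 stood at 5.88, 6.45 and 5.81 against 6.47, 7.40 and 7.42, a difference of 1.05 ± 0.27 (adjusted p = 0.0370). The GINS subunit Gins1 stood at 5.90, 6.39 and 5.87 against 6.51, 7.40 and 7.45, a difference of 1.07 ± 0.26 (adjusted p = 0.0308). For both, every DBA/2J F1 array was above every AKR/J F1 array. Another GINS subunit, Gins2, had 6.18, 6.61 and 6.02 against 6.74, 7.30 and 7.28 (0.84 ± 0.19, adjusted p = 0.0271). Mcm10, which binds the activated helicase at the fork, had 6.05, 6.49 and 6.02 against 6.50, 7.45 and 7.25 (0.88 ± 0.24, adjusted p = 0.0418). Gins3, a further subunit of the same complex, did not pass, at 5.78, 5.83 and 5.62 against 5.58, 6.03 and 6.03, where replicate 1 of the DBA/2J F1 group was the lowest of the 6. Its difference of 0.14 had a 95% interval from -0.17 to 0.45, which lies below the values of Gins1 and Gins2. The difference between these genes was not tested, and the contrast holds for the main probe sets only. A further, dimmer Gins3 probe set gave 0.32 without overlap of the groups (limma over all probe sets, adjusted p = 0.0778). The further probe sets of Gins1 and Gins2 gave 0.17 and 0.61. In this group 0 genes passed without DBA/2J F1 replicate 2 or 3 or AKR/J F1 replicate 1 or 3, 3 passed without AKR/J F1 replicate 2, and 10 without DBA/2J F1 replicate 1.

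**Figure D3:**
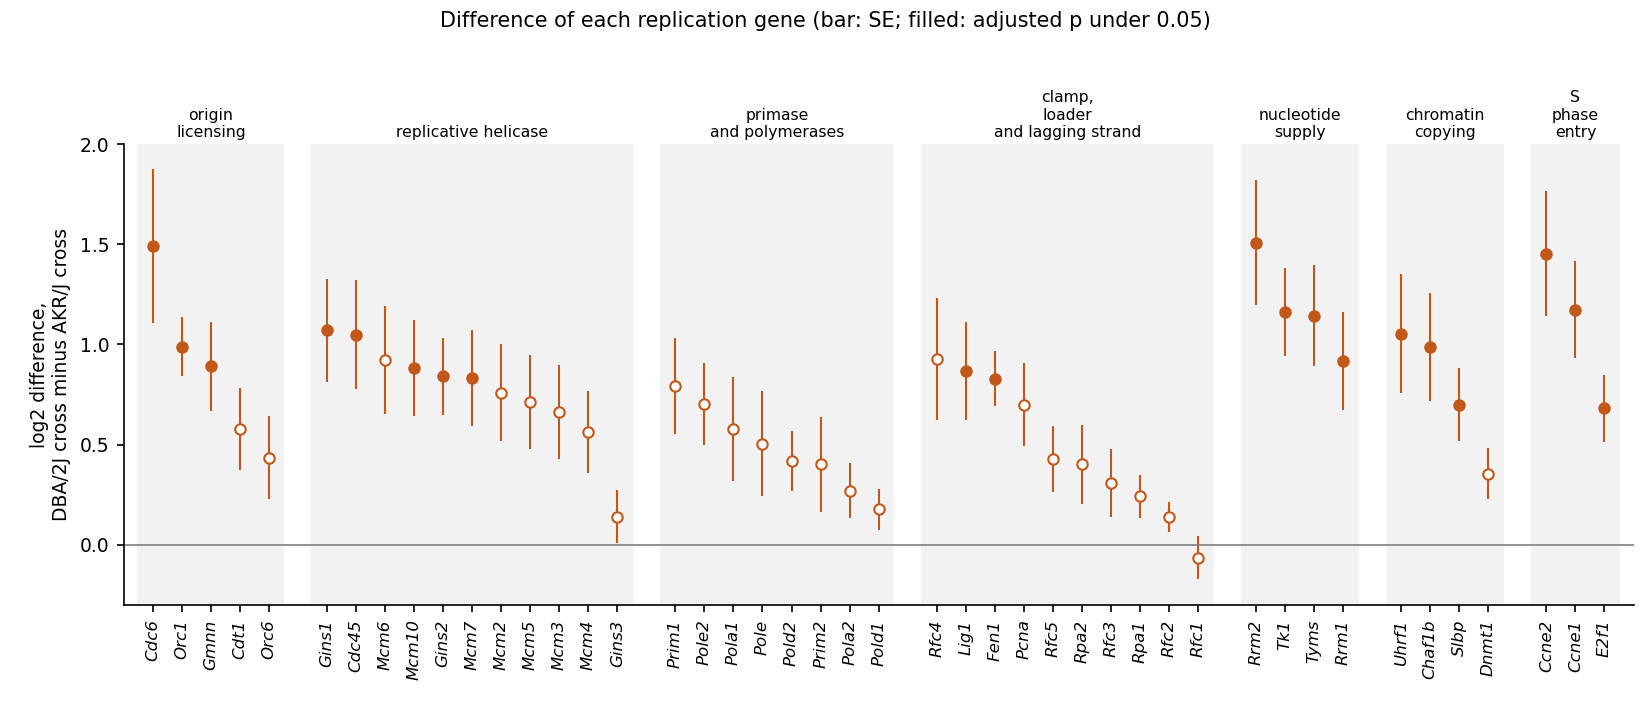
Difference of each replication gene between the crosses (vertical axis, log2, DBA/2J F1 group minus AKR/J F1 group) with its SE from limma, ordered within each role; filled points passed an adjusted p of 0.05. All nucleotide supply and S phase entry genes are filled, and no primase or polymerase gene is.

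No primase or DNA polymerase gene passed with all 6 arrays in the limma fit described. All 8 had values above 0, with a median of 0.46, but 0 passed in limma, and 3 (Prim1, Pole2 and Pold2) had an unadjusted p under 0.05. The primase catalytic subunit Prim1, the largest of them, read 7.81, 7.98 and 7.65 in the AKR/J F1 group and 7.99, 8.82 and 9.001 in the DBA/2J F1 group. Its arrays did not overlap, though the first DBA/2J F1 array was only just above, and the difference was 0.79 ± 0.24 (adjusted p = 0.0556). Pole2, an accessory subunit of the leading strand polymerase, gave 0.70 (adjusted p = 0.0506), and Pola1, the catalytic subunit of the polymerase that extends primers, gave 0.58 (adjusted p = 0.1496). Pold1, the catalytic subunit of the lagging strand polymerase, had the smallest value, at 8.37, 8.44 and 8.35 against 8.37, 8.56 and 8.75 (0.18, adjusted p = 0.257). The 95% interval of Pold1 ran from -0.06 to 0.42. A further, dimmer Pold1 probe set gave 0.35 without overlap of the groups (limma over all probe sets, adjusted p = 0.103).

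In replicate 1 of the DBA/2J F1 group the polymerase genes were level with the AKR/J F1 group, with a median of -0.02 relative to its mean. In replicates 2 and 3 together that median was 0.76. The count past the threshold was 7 of 8 without replicate 1 of the DBA/2J F1 group and 0 without any other array. It was 2 after quantile normalization, 4 with array weights, 1 with the replicate number as a block and 1 with probe sets averaged per gene.

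Of 10 genes of the sliding clamp, its loader and lagging strand processing, 2 were higher in the DBA/2J F1 group, and the median was 0.41. Both act at the end of Okazaki fragment synthesis. Fen1, the nuclease that trims flaps, stood at 9.46, 9.75 and 9.40 in the AKR/J F1 group and 10.10, 10.45 and 10.54 in the DBA/2J F1 group. Replicate 1 of the DBA/2J F1 group stood clear of the AKR/J F1 group here, and the gene differed by 0.83 ± 0.14 (adjusted p = 0.0123). Lig1, the ligase that seals the fragments, had 8.06, 8.51 and 8.08 against 8.49, 9.33 and 9.44 (0.87 ± 0.24, adjusted p = 0.0459), and replicate 1 of the DBA/2J F1 group was just below replicate 2 of the AKR/J F1 group. Pcna, the clamp itself, read 11.60, 11.73 and 11.28 against 11.76, 12.37 and 12.57 and missed the threshold although no arrays overlapped (0.70 ± 0.21, adjusted p = 0.0525). In this group 0 to 1 genes passed without any one array other than replicate 1 of the DBA/2J F1 group, and 8 passed without that one.

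None of the 5 subunits of the clamp loader passed (0 in limma, and 2, Rfc4 and Rfc5, at an unadjusted p under 0.05). Rfc4 gave the highest, at 7.14, 7.78 and 7.01 against 7.54, 8.57 and 8.60 (0.93 ± 0.30, adjusted p = 0.0689), followed by Rfc5 with 0.43 and Rfc3 with 0.31. The large subunit Rfc1 read 7.89, 8.10 and 8.04 against 7.76, 7.98 and 8.11, with overlapping groups (-0.07, 95% interval -0.31 to 0.18). The Rfc1 value was 0.02 after quantile normalization and 0.03 without replicate 1 of the DBA/2J F1 group. Rfc2 lay between 9.27 and 9.49 on all 6 arrays, and its groups did not overlap although it did not pass (0.14, 95% interval -0.04 to 0.31). The single-strand DNA binding subunits Rpa1 and Rpa2 gave 0.24 and 0.40 (adjusted p = 0.141 and 0.184).

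All 4 genes of nucleotide supply were higher in the DBA/2J F1 group, with a median of 1.15. Ribonucleotide reductase makes deoxynucleotides from ribonucleotides, and its regulated small subunit Rrm2 stood at 9.16, 9.54 and 8.60 in the AKR/J F1 group and 9.93, 10.92 and 10.96 in the DBA/2J F1 group. Rrm2 had the largest difference of the 45 genes, 1.51 ± 0.31 or 2.84-fold (adjusted p = 0.0217), and its groups did not overlap. The large subunit Rrm1 read 8.64, 9.05 and 8.49 against 9.07, 9.86 and 9.996 (0.91 ± 0.24, adjusted p = 0.0405), with replicate 1 of the DBA/2J F1 group just above replicate 2 of the AKR/J F1 group. Thymidine kinase 1 (Tk1), which salvages thymidine, had 7.53, 7.91 and 7.45 against 8.26, 9.02 and 9.08 (1.16 ± 0.22, adjusted p = 0.0171). Thymidylate synthase (Tyms) had 3.78, 3.74 and 3.40 against 4.16, 4.95 and 5.24 (1.14 ± 0.25, adjusted p = 0.0251). The Tyms probe set lay low on the array, at percentile 27.9 of all genes by mean level, where background signal can make differences look smaller. The groups did not overlap in Tyms or Tk1. Without replicate 3 of the DBA/2J F1 group only Tk1 passed, and without AKR/J F1 replicate 2 both Rrm2 and Tk1 did. Without AKR/J F1 replicate 1 or 3 or DBA/2J F1 replicate 2, 0 of the 4 passed, and without DBA/2J F1 replicate 1 all 4 did.

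Of the 4 measured genes that copy chromatin marks or supply histones, 3 were higher in the DBA/2J F1 group. Uhrf1, which recruits the maintenance methyltransferase to newly copied DNA, stood at 7.30, 7.79 and 7.12 against 7.75, 8.76 and 8.86 (1.05 ± 0.30, adjusted p = 0.0454), with replicate 1 of the DBA/2J F1 group below replicate 2 of the AKR/J F1 group. The histone chaperone subunit Chaf1b had 5.53, 6.11 and 5.71 against 6.12, 7.05 and 7.15 (0.99 ± 0.27, adjusted p = 0.0422). Slbp, which binds the stem-loop of histone messages, had 9.60, 9.79 and 9.40 against 9.87, 10.51 and 10.51 (0.70 ± 0.18, adjusted p = 0.0379). The maintenance methyltransferase Dnmt1, the partner of Uhrf1, did not pass, with 8.78, 8.86 and 8.75 against 8.85, 9.27 and 9.33 (0.35 ± 0.13, adjusted p = 0.0887). Without any one array other than replicate 1 of the DBA/2J F1 group 0 of these 4 passed, and all 4 passed without that one.

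All 3 regulators of S phase entry were higher in the DBA/2J F1 group, and in each the groups did not overlap. Ccne2, 1 of the 2 E cyclins that activate Cdk2, read 5.32, 5.16 and 4.22 in the AKR/J F1 group and 5.83, 6.71 and 6.52 in the DBA/2J F1 group (1.45 ± 0.31, adjusted p = 0.0238). Ccne1, the other E cyclin, had 7.22, 7.29 and 6.71 against 7.70, 8.60 and 8.43 (1.17 ± 0.24, adjusted p = 0.0215). In both E cyclin genes replicate 3 of the AKR/J F1 group was the lowest array and replicate 2 of the DBA/2J F1 group the highest. The transcription factor E2f1, which activates many replication genes, had 5.85, 5.99 and 5.92 against 6.18, 6.77 and 6.87 (0.68 ± 0.17, adjusted p = 0.0334). Without replicate 2 or 3 of the DBA/2J F1 group, or replicate 3 of the AKR/J F1 group, 0 of the 3 passed, and without replicate 1 or 2 of the AKR/J F1 group 1 and 2 did.

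Of these genes, many were measured more than once on the array. The 45 genes had 100 probe sets, 35 genes having at least 2, and the 55 probe sets not used above were tested with all 45037 probe sets, where 5.26% were higher in the DBA/2J F1 group. Of the 55, 9 passed with a higher level in the DBA/2J F1 group and 0 in the AKR/J F1 group, where 5.14% of all probe sets did, and 49 values were above 0. The 2 further probe sets of Rrm2 gave 1.55 and 1.49, that of Ccne1 1.19, that of Orc1 1.38 and one further probe set of Mcm6 1.27, all past the threshold. Further probe sets of E2f1 (0.43 and 0.49), Mcm7 (0.87) and Mcm10 (0.47) also passed, the last a dim one at 3.28 to 3.96. In limma over all probe sets the main ones of Mcm7 and Mcm10 did not pass (adjusted p = 0.0588 and 0.0512). In Slbp the further probe sets gave values unlike the main one, with 0.14 and -0.05 (adjusted p = 0.780 and 0.792), and the 3 further ones of Tyms, all dimmer, gave -0.01 to 0.20. One further probe set each also gave a smaller value than the main one in Cdc45 (0.19 against 1.05, adjusted p = 0.200), Gins1 (0.17 against 1.07), Chaf1b (0.19 against 0.99) and Rrm1 (-0.0043 against 0.91), and none of these 4 passed. The same held, among others, for dim probe sets of Cdt1 (-0.09 against 0.58), Pole2 (0.04 against 0.70), Mcm6 (0.16 against 0.92) and Mcm3 (0.14 against 0.66). With this wider adjustment 15 of the 45 main probe sets passed. Among the 55 further probe sets, 35 passed without replicate 1 of the DBA/2J F1 group and 0 to 3 without any other array.

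**Figure D4:**
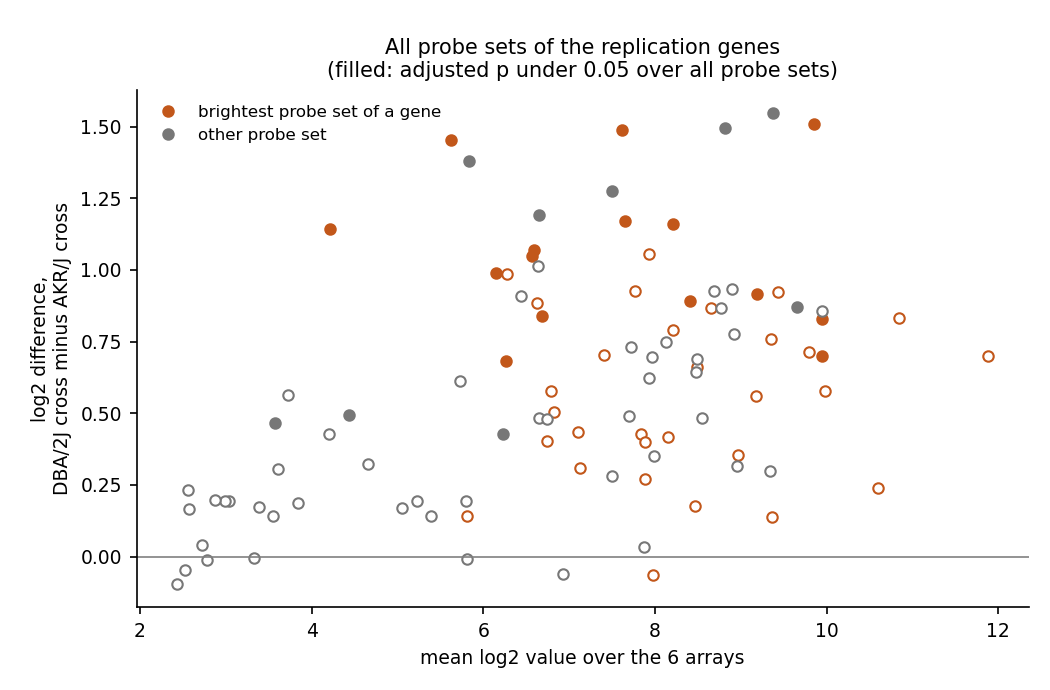
Difference between the crosses (vertical axis, log2, DBA/2J F1 group minus AKR/J F1 group) against mean log2 level (horizontal axis) for all 100 probe sets of the 45 genes; orange marks the brightest of each gene, grey the others, and filled points passed an adjusted p of 0.05 over all 45037 probe sets. Probe sets with a mean below 3 lie between -0.09 and 0.23, and brighter ones spread from -0.07 to 1.55.

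Further genes of the same pathways were read from lists set up for this comparison. Of 37 other replication fork genes, 9 were higher in the DBA/2J F1 group (24.3%) and 0 in the AKR/J F1 group (3 at an unadjusted p under 0.05), with a median of 0.30. The smallest p-values belonged to Chtf18, of an alternative clamp loader (0.75 ± 0.14, adjusted p = 0.0155), Rnaseh2c, a subunit of the nuclease that removes ribonucleotides (0.55), Dbf4, the activator of the Cdc7 kinase (0.68), and the histone chaperone Asf1b (0.96). The origin recognition subunit Orc5 had the largest p of the list, with a difference of 0.09 (adjusted p = 0.674). Of 14 other nucleotide synthesis genes, 1 was higher, Shmt1, an enzyme of folate metabolism, at 6.62, 6.79 and 6.78 against 7.24, 7.30 and 7.23 (0.53 ± 0.08, adjusted p = 0.00949). None was higher in the AKR/J F1 group (0 in limma, 0 at an unadjusted p under 0.05), and Cad, the first enzyme of pyrimidine synthesis, had the largest p, with a difference of 0.11 (adjusted p = 0.504). Of this list 7 passed without replicate 1 of the DBA/2J F1 group and 1 without any other array. The group's median was 0.16 and the share past the threshold 7.14%, near the 8.31% of all genes.

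Of 29 E2F, Rb and G1 cyclin genes, 9 were higher in the DBA/2J F1 group (31%) and 1 in the AKR/J F1 group, with a median of 0.30. Among all genes the shares were 8.31% and 8.91%. The E2F partner Tfdp2 stood at 8.14, 7.91 and 8.06 against 8.89, 9.14 and 9.24 (1.05 ± 0.11, adjusted p = 0.00336). E2f2 read 8.27, 8.06 and 7.63 against 9.07, 9.26 and 9.48 (1.28 ± 0.17, adjusted p = 0.00691). In both, replicate 1 of the DBA/2J F1 group was well clear of the AKR/J F1 group, and both passed whichever array was left out. The repressor E2F genes E2f8 (1.52 ± 0.26) and E2f7 (0.89 ± 0.16) were also higher in the DBA/2J F1 group. Rbl2, a pocket protein of resting cells, was higher in the AKR/J F1 group (-0.28 ± 0.07, adjusted p = 0.0369), and the inhibitor Cdkn1b had the largest p, with a difference of -0.02 (adjusted p = 0.904). Of 20 replication checkpoint and repair genes, 5 were higher in the DBA/2J F1 group (25%), among them Brca1 (0.90), Blm (0.92), Fancd2 (0.78) and Rad51ap1 (1.16). The damage kinase gene Atm was higher in the AKR/J F1 group (-0.34, adjusted p = 0.0419), a call lost without any one array, and Rad1 had the largest p, with a difference of -0.04 (adjusted p = 0.768). That list's median was 0.15. Without replicates 1, 2 and 3 of the AKR/J F1 group and then of the DBA/2J F1 group, the fork genes higher in the DBA/2J F1 group numbered 0, 6, 0, 22, 0 and 2. The shares of all genes higher in that group were 1.72%, 3.18%, 2.06%, 8.99%, 2.35% and 3.05%. In the same order the counts were 3, 6, 2, 14, 3 and 4 for the E2F, Rb and G1 cyclin list and 0, 0, 0, 10, 0 and 0 for the checkpoint and repair list, and Rbl2 passed only without replicate 1 of the DBA/2J F1 group.

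Mitosis genes were compared as the list most like the replication genes. In the DBA/2J F1 group 27 of 29 such genes were higher (93.1%), against 8.31% of all genes. In the AKR/J F1 group 0 were higher (0 at an unadjusted p under 0.05). The median difference was 1.16 against 0.71 for the replication genes. The spindle protein gene Nusap1 (1.59), the kinetochore gene Cenpf (1.55), the cyclin Ccnb2 (1.65) and the proliferation marker Mki67 (1.60) had the smallest p-values and each passed whichever array was left out. Foxm1, a transcription factor of G2, had the largest p of the list, with a difference of 0.24 (adjusted p = 0.115). The lists differed in replicate 1 of the DBA/2J F1 group. It lay above every AKR/J F1 array for 27 of 29 mitosis genes and 21 of 45 replication genes, against 34.3% of all genes. Relative to the AKR/J F1 mean, that array's median was 0.68 for mitosis genes and 0.23 for replication genes, and replicates 2 and 3 together gave 1.43 and 0.97. No test was made of the difference between the lists. Leaving out AKR/J F1 replicate 1, 2 or 3 left 4, 20 or 6 mitosis genes past the threshold, and leaving out DBA/2J F1 replicate 1, 2 or 3 left 27, 6 or 15.

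Markers of other cells were read beside these values. For comparison, 8.31% of all genes were higher in the DBA/2J F1 group with all 6 arrays and 8.91% in the AKR/J F1 group. At an unadjusted p under 0.05 they numbered 3234 and 3353 of 18193. All 13 measured erythroid precursor markers, among them Gata1 and Klf1, were higher in the DBA/2J F1 group, and their mean level was 7.85 to 8.54 in the AKR/J F1 group and 9.52, 10.18 and 10.30 in replicates 1 to 3 of the DBA/2J F1 group. The order of the 6 arrays in that mean was the same as in the mean of the replication genes, with AKR/J F1 replicate 3 lowest and DBA/2J F1 replicate 3 highest. No erythroid marker was at 0 on any array, but the lowest value deposited was 1.81, so this could not have come out otherwise. Of 4 germinal centre B cell markers 0 passed in limma (1 at an unadjusted p under 0.05, higher in the AKR/J F1 group), and their mean was 5.42 to 5.70 in the AKR/J F1 group and 5.37 to 5.63 in the DBA/2J F1 group. The progenitor genes Kit, Cd34, Myb and Flt3 had means of 7.07 to 7.17 and 6.997 to 7.22, with 0 higher in the DBA/2J F1 group (0 at an unadjusted p under 0.05) and Cd34 higher in the AKR/J F1 group. Megakaryocyte markers had 0 of 4 past the threshold and 2 at an unadjusted p under 0.05 (8.79 to 9.09 and 9.02 to 9.45). All 8 T cell markers were higher in the AKR/J F1 group (8.56 to 8.65 against 8.06 to 8.12), as were 3 of 5 B cell markers (11.76 to 11.85 against 11.37 to 11.64) and 2 of 6 red pulp macrophage markers. Plasma cell markers had 0 of 5 past the threshold (2 at an unadjusted p under 0.05), and neutrophil markers 0 of 7 (0 at an unadjusted p) with means of 8.30 to 9.06 and 8.21 to 9.79. None of the pancreatic exocrine markers passed (0 of 9, and 0 at an unadjusted p under 0.05). Without replicate 3 of the DBA/2J F1 group 13 of 13 erythroid markers were higher in that group, and 6 of 8 T cell, 0 of 5 B cell and 2 of 6 macrophage markers were higher in the AKR/J F1 group. At an unadjusted p under 0.05 in that fit, 4 B cell and 8 pancreatic markers were higher in the AKR/J F1 group and 6 of 7 neutrophil markers in the DBA/2J F1 group, with 0 past the adjusted threshold in these 3 lists. Germinal centre, megakaryocyte and plasma cell markers also had 0 past it in limma, with 0, 3 and 1 at an unadjusted p under 0.05. Over the 6 fits with an array left out, 11 to 13 erythroid, 5 to 8 T cell and 0 to 5 B cell markers passed in those directions, and Cd34 passed in 0. The part of any of these cell types in the replication gene values was not tested.

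**Figure D5:**
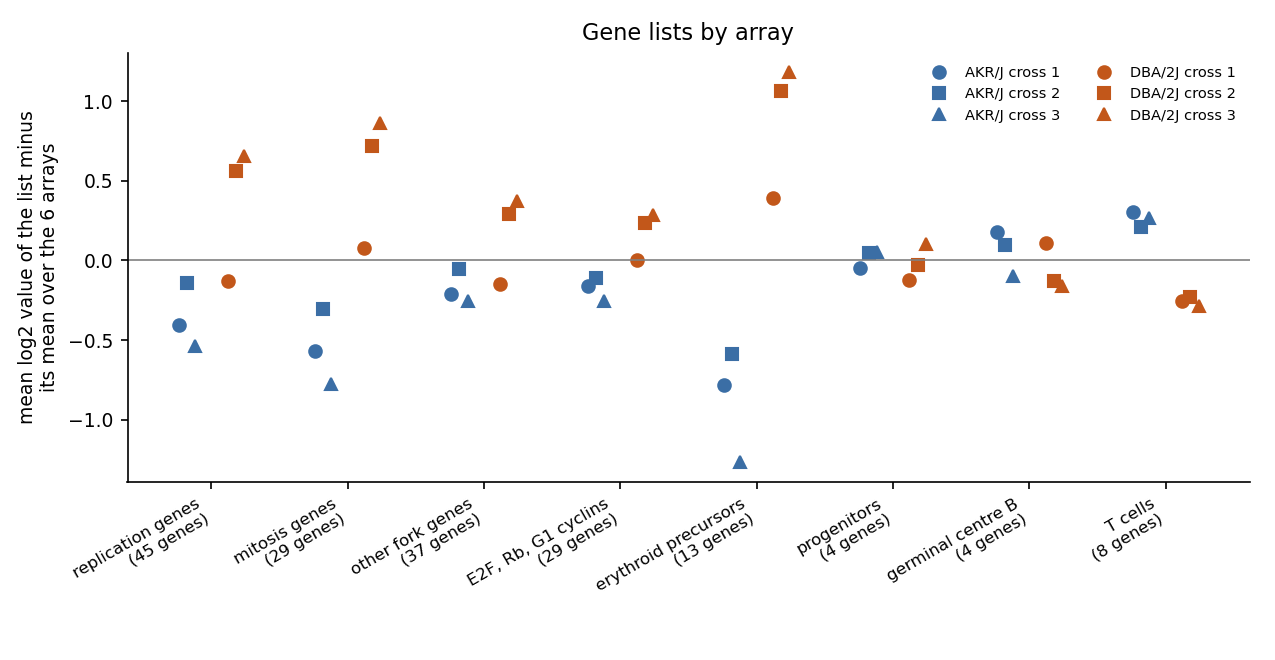
Mean log2 value of each gene list on each array, minus the list's mean over the 6 arrays (vertical axis); colour gives the cross and shape the replicate. Replication, mitosis and erythroid precursor genes are highest in replicates 2 and 3 of the DBA/2J F1 group, with replicate 1 at -0.13, 0.08 and 0.39, and T cell genes are higher in all 3 AKR/J F1 arrays.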

How the data were processed

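RNA from 6 spleens was labelled with biotin and hybridised to Affymetrix one-colour arrays, per the labels' protocols. The authors deposited log2 values per probe set, already brought to a common scale, and RMA and MAS5 are named without role or version per the submitters' processing notes. Background signal can make differences between dim probe sets look smaller. Groups came from the sample titles. After 64 control probe sets were left out, 45037 remained, of which 34945 had 1 symbol in the platform annotation, 932 several and 9160 none listed here. Of the 34945, 34741 matched a GRCm38.p6 gene by identifier, and 0 symbols changed.

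The brightest probe set stood for each of 18193 genes, and the crosses were compared with limma 3.58.1 (lmFit, eBayes) in R 4.3.3, with Benjamini-Hochberg adjustment over all genes and a threshold of 0.05. The procedure was tested on simulated data with independent noise for each gene. It recovered 42% of log2 changes of 0.5 and 84% of changes of 1 in genes picked at random, so many smaller differences would be missed. These shares do not describe the replication genes, which spread more. Their median SD was 0.465 in the DBA/2J F1 group and 0.211 in the AKR/J F1 group, against 0.112 and 0.0996 over all genes. The replication genes did not vary independently, since DBA/2J F1 replicate 1 was the lowest of its cross for all 45. With 3 arrays a group no exact permutation test can reach the adjusted threshold of 0.05, and the number of arrays limits the precision. Depth has no meaning for array values. The members and gene lists were chosen with earlier results of these data known. Values by array were given for each member past the threshold and for those with the largest and smallest difference in each role. Of each further list, up to 4 genes a direction with the smallest p and the one with the largest p were named, and other genes named as examples were chosen after their values were seen. Alternatives were array centring, quantile normalization, omission of genes below the 40th percentile of level, a trended robust variance (statmod 1.5.0), array weights, a replicate block, leaving out each array, probe sets averaged per gene, and a fit over every probe set.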

Additional observations from a re-analysis of the deposited data

How the results depend on the processing

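None of the 45 replication genes changed direction under the alternatives run except Rfc1, which was not called and turned from -0.07 to 0.02 after quantile normalization and to 0.03 without DBA/2J F1 replicate 1. The median difference of the replication genes stayed between 0.55 and 0.97. The count of replication genes higher in the DBA/2J F1 group was 18 with arrays centred on their median and 22 after quantile normalization. It was 19 of the 44 kept without dim genes, 16 with probe sets averaged per gene and 15 with adjustment over all probe sets. It was 7 with a trended and robust variance, 35 with array weights and 2 to 41 with 1 array left out. Tyms was the replication gene left out as dim, and no other call was lost in that fit. None of the 45 was higher in the AKR/J F1 group in any of these fits. The further pathway genes higher in the DBA/2J F1 group numbered 51, and 8 to 80 with 1 array left out. Those higher in the AKR/J F1 group numbered 2 (Rbl2 and Atm), and 4 with arrays centred or without dim genes, 1 with the replicate block, 0 after quantile normalization, with probe sets averaged per gene or with adjustment over all probe sets, and 0 to 2 with 1 array left out. Of the further probe sets of the replication genes 9 passed, and 3 with a trended and robust variance, 25 with array weights, 20 with the replicate block and 0 to 35 with 1 array left out. Centring each array on its median moved the share of all calls that were higher in the DBA/2J F1 group from 48.3% to 37.5%, quantile normalization to 58.8% and leaving out dim genes to 33.1%. The replicate numbers were not taken to pair the arrays, since the deviations of same-numbered arrays from their group means correlated at 0.169, 0.131 and -0.0133 across genes, and not every array correlated best with its own number. With the replicate number as a block 23 replication genes and 49 further pathway genes were higher in the DBA/2J F1 group. The cause of these changes was not tested. A group size of 3 arrays and signals near background, as for Tyms, limit what the data can show.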
